A study of Mus musculus with 9 samples.

Results

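The 10 genes described here encode regulators that set how much of the mitochondrial and fatty acid oxidation program a muscle fibre transcribes. They were chosen by name, as listed regulators, with earlier results of these data known: the co-activators Ppargc1a, Ppargc1b and Perm1, the estrogen-related receptors Esrra, Esrrb and Esrrg, the peroxisome proliferator-activated receptors Ppara and Ppard, and the factors Nrf1 and Tfam. They were read among 55487 genes listed in each of 9 RNA-seq tables of mouse gastrocnemius, a mixed calf muscle. Values are in TPM, a transcript level scaled by transcript length and by the total of each sample. All 10 genes reached 0.3 TPM in at least 3 samples, as did 16140 genes in all, and were tested.

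The samples came from C57BL/6 male mice, aged 8 weeks by the series text and older at use by the methods, with 3 samples in each of 3 groups. Dis was the leg held still for 7 days with a thermoplastic bandage, Con was the free leg on the other side of immobilized mice, and NC was muscle of mice given no treatment. No transgene or deletion is named for any group; the bandage was put on and taken off under isoflurane, an anaesthetic that reached both legs of those mice, and NC is labelled as untreated. Con shared animals with Dis, so a change in the whole animal could reach both (the labels give no key to which Con and Dis came from one mouse). The sources part on which hindlimb was bandaged, on whether the RNA came from gastrocnemius or tibialis anterior, and on whether Con was a free leg; the sample labels were followed. Read totals cannot be had from TPM, which leaves depth unknown and counting error uncomputed.

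PGC-1α and PGC-1β, the products of Ppargc1a and Ppargc1b, bind no DNA themselves. They dock on nuclear receptors such as the ERRs and PPARs and recruit the enzymes that open chromatin and start transcription. ERRs, which need no known ligand, bind upstream of genes for the citric acid cycle and the respiratory chain, while PPARs are opened by fatty acids and act on genes of fat uptake and oxidation as partners of RXR. Perm1 is a muscle protein induced by PGC-1 and ERR that in turn raises oxidative genes. NRF1, nuclear respiratory factor 1, acts on nuclear genes of the respiratory chain, and TFAM packages mitochondrial DNA and starts its transcription. In skeletal muscle this set is known for its link to endurance activity and oxidative fibres.

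The stretches from 250 bases before to 50 bases after the start of transcription are shown for the members that differed together, with Ppargc1a beside them, because the factors described above are known to bind DNA near such starts. They are RefSeq sequences of build GRCm38.p6, read in the direction of transcription, and 9 of the 10 members matched by symbol. Capitals mark the letters found by a search on both strands. Perm1 lies at chr4:156215677-156215976 on the plus strand, Esrra at chr19:6921759-6922058 on the minus strand, Esrrb (the first of 2 windows) at chr12:86360867-86361166 on the plus strand, Esrrg (the first of 4 windows) at chr1:187608756-187609055 on the plus strand, Ppara at chr15:85735526-85735825 on the plus strand, and Ppargc1a at chr5:51567676-51567975 on the minus strand.
Perm1: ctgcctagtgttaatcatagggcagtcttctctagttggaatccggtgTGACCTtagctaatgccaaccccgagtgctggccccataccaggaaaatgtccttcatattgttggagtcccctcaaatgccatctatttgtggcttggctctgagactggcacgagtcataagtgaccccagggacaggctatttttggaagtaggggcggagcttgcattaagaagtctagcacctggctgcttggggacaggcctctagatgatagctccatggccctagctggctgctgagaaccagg
Esrra: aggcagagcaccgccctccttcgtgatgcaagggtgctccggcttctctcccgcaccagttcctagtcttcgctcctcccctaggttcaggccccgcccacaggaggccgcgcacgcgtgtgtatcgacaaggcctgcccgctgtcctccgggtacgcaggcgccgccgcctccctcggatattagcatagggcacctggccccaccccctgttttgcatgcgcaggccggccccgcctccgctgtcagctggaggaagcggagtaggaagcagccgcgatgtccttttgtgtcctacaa
Esrrb: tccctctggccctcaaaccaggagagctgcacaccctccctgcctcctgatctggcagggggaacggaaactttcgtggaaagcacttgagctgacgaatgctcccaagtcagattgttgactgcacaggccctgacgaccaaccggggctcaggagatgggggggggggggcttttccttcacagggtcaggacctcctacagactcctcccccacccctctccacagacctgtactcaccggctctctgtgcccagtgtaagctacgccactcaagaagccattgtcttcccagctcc
Esrrg: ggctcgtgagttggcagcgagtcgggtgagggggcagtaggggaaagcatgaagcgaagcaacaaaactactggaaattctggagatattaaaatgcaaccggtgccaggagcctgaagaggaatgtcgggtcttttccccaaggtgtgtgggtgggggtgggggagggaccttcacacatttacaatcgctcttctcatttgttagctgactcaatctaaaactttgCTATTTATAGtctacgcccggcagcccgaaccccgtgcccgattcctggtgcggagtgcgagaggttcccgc
Ppara: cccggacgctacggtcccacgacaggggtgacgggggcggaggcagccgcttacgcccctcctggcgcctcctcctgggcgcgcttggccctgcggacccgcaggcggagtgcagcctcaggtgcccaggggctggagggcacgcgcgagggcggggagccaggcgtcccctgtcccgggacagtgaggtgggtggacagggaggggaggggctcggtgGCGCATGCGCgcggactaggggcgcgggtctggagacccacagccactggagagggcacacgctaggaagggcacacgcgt
Ppargc1a: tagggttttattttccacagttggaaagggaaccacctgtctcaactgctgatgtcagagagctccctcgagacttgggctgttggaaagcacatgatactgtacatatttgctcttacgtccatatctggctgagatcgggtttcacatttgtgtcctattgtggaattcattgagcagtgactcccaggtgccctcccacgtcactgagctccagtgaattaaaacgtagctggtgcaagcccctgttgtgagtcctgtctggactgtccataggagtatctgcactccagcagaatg

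The nuclear receptor hexamer AGGTCA was found in Perm1, on the minus strand, from base -202 to base -197 counted from the start. This hexamer is common: 16.3% of 32851 windows of the same length held it. Ppara held the NRF1 palindrome GCGCATGCGC from -31 to -22, as did 0.971% of all windows. Esrrg held a MEF2 site from -22 to -13, as did 3.19% of windows, and a second MEF2 site lay in the second of the windows of Nrf1, from -95 to -86. Tfam held the GABP site CCGGAAGT from -47 to -40 on the plus strand, as did 3.89% of windows.

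The full ERR element TNAAGGTCA, which contains the hexamer and was in 1.28% of all windows, was in the windows of 0 of the 9 members. So was the PPAR element AGGTCANAGGTCA, which holds the hexamer at both ends and was in 0.0396% of windows. The cyclic AMP element TGACGTCA, in 1.79% of windows, was also in 0 of the 9. These matches are descriptions of short windows, and a missing match says only that these letters are not in them.

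By the marker genes of muscle fibres, the 9 samples were muscle, with a summed level of 6 such genes between 44963 and 68244 TPM. Dis 2 stood apart from the other samples of its group. Its 5 macrophage genes summed to 140 TPM against 14.8 to 38.9 TPM elsewhere, and genes of the mitochondrial chromosome took 13.8% of its TPM against 19.3% to 23.4%. Con 1 held 370 TPM of 6 adipocyte genes against 36.1 to 126 TPM elsewhere. For the 10 members, values without a single sample are given where they change a call. In bulk muscle, fewer cells of a type and less RNA per cell cannot be told apart. Across all tested genes the median log2 difference was 0.20 for Dis with Con, 0.21 for Dis with NC and 0.01 for Con with NC, so values near 0.20 in the first 2 comparisons lay with the bulk of genes.

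In the free leg, the co-activator Perm1 was the most abundant of the 10, at 124 ± 18.0 TPM (SD, n = 3), followed by Esrra at 88.0 ± 5.98 TPM. Ppard stood at 22.9 ± 2.34 TPM, Tfam at 16.0 ± 1.06 TPM and Esrrg at 11.9 ± 2.07 TPM. The others lay between 4.23 TPM for Esrrb and 7.65 TPM for Nrf1. Nrf1 and Ppargc1a overlapped sample by sample in Con, and so did Ppargc1b, Ppara and Esrrb, so the order within these sets is not beyond their spread. In the immobilized leg the top of the order was no longer clear: Esrra averaged 58.2 ± 8.61 TPM and Perm1 47.7 ± 25.2 TPM, and their samples overlapped.

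**Figure D1:**
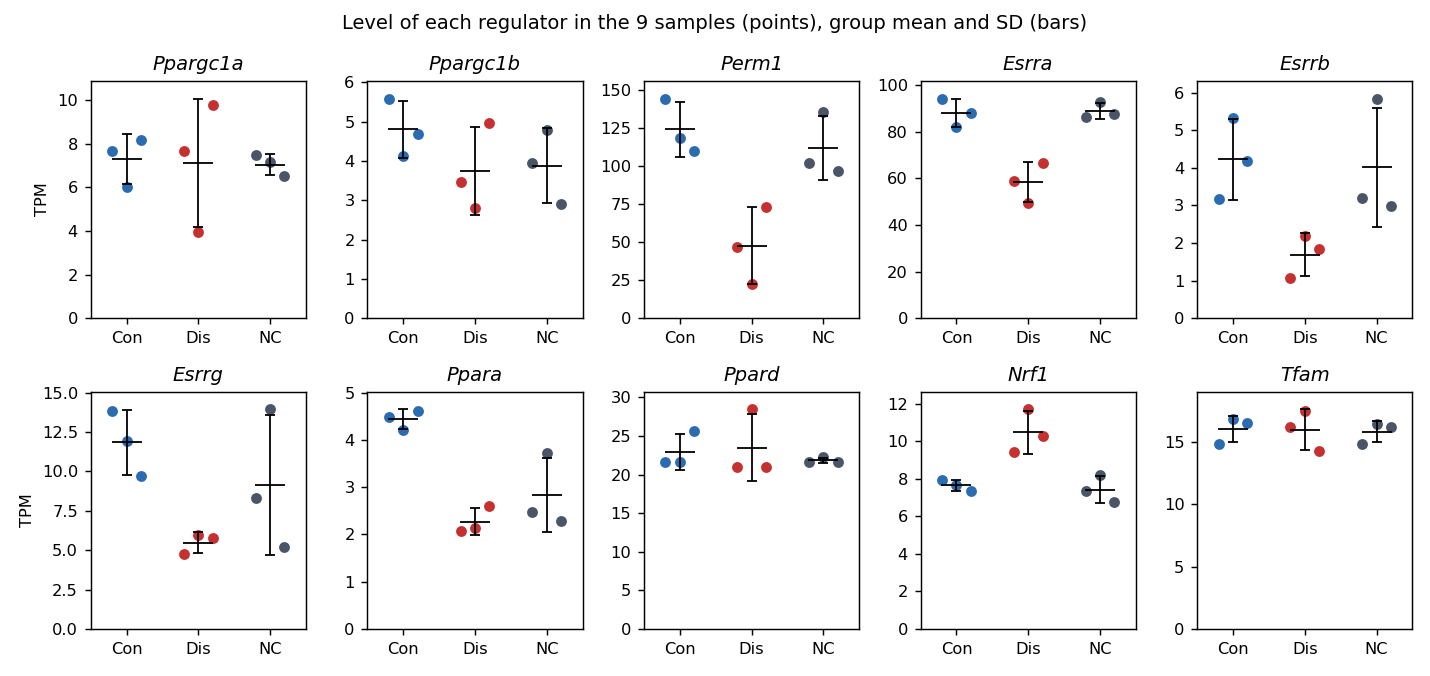
Level of each of the 10 regulators in TPM (y axis, from 0) in the samples of Con, Dis and NC (points), with the group mean and SD (bars, n = 3). Perm1, Esrra and Esrrb in Dis lie below every Con and NC sample, Nrf1 in Dis lies above them, and Ppargc1a and Tfam overlap across the groups.

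Immobilization was compared first with the free leg of the same group of mice. Of the 10 regulators, 5 were lower in Dis than in Con and 1 was higher at an adjusted p below 0.05 (limma, Benjamini-Hochberg over 16140 genes). Among all tested genes 17.2% passed in either direction, 14.1% as higher and 3.08% as lower. The 5 lower genes were Perm1, Esrra, Esrrb, Esrrg and Ppara, and the higher gene was Nrf1. The same 6 were the members whose Dis and Con samples did not overlap, where 36.7% of all genes did not overlap, 30.2% lying higher and 6.43% lower. Ppargc1a, Ppargc1b, Ppard and Tfam did not pass. The study's supplementary list of genes with their log2 ratios of Dis to control, drawn from these samples, holds Perm1, Esrrb and Esrrg. Their direction here is therefore not independent of that list, whose threshold was not compared with the one used here.

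Against untreated mice, 3 regulators were lower in Dis (Perm1, Esrra and Esrrb) and 1 was higher (Nrf1), where 16.6% of all genes passed in either direction, 13.6% as higher and 2.99% as lower. These 4 were again the members whose groups did not overlap, as for 38% of all tested genes (31.3% higher and 6.71% lower). The comparison uses the same Dis samples as the one with Con, so the members shared between them are not independent support. The plot of fold changes shows each member with its interval in the 3 comparisons.

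**Figure D2:**
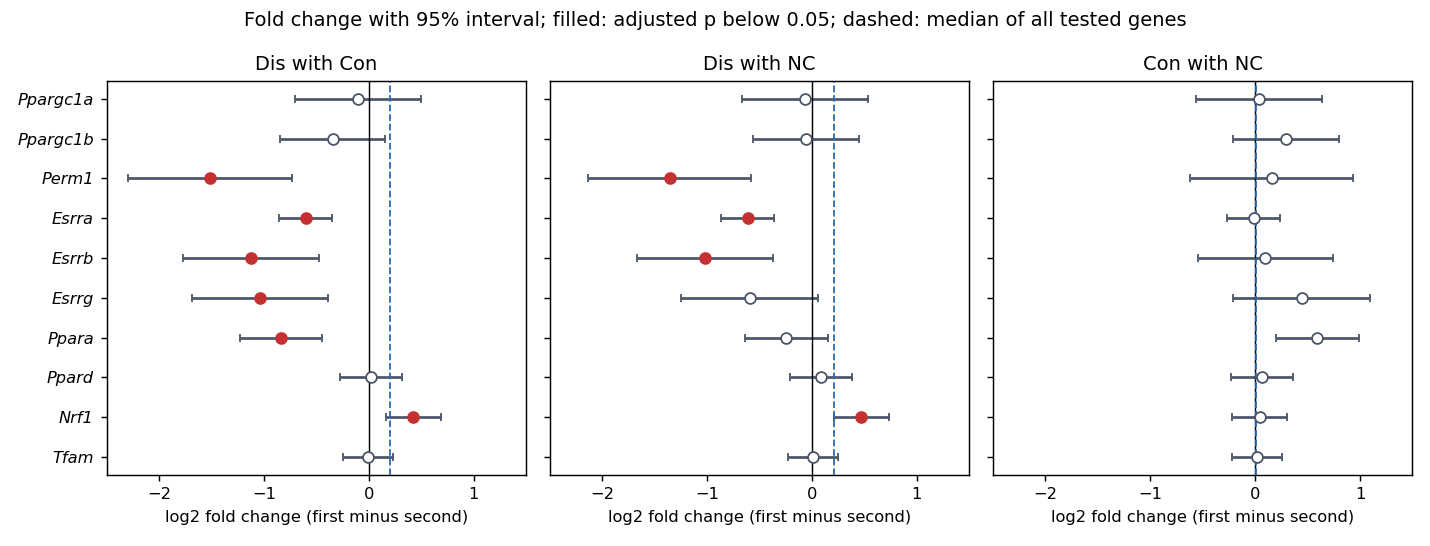
Log2 fold change of each regulator (x axis, first group minus second) with its 95% interval, for Dis with Con, Dis with NC and Con with NC; filled points passed an adjusted p of 0.05 in limma, and the dashed line is the median of all tested genes. Perm1 lies farthest to the left, at -1.51 and -1.35 against Con and NC, and in the comparison of Con with NC the interval that lies away from 0 is that of Ppara.

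Among the co-activators, Ppargc1a, the inducible member that answers to contraction and cold, stood at 7.69, 6.00 and 8.17 TPM in Con, 7.65, 3.95 and 9.77 TPM in Dis, and 7.48, 7.14 and 6.51 TPM in NC. The Dis samples held both the lowest and the highest of the 9 values. The log2 difference of Dis from Con was -0.10 (SE 0.27, adjusted p = 0.814 in limma), with a 95% interval from -0.70 to 0.50, and that from NC was -0.07 (SE 0.27, adjusted p = 0.883). The lowest value was that of Dis 2, and without it the differences were 0.24 and 0.28 (adjusted p = 0.314 and 0.259 in limma). The interval leaves room for a change of either sign. A gene total does not separate the Ppargc1a transcripts that start at its alternative promoters.

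Ppargc1b, the constitutive relative of Ppargc1a, stood at 5.59, 4.13 and 4.69 TPM in Con, 3.47, 2.80 and 4.96 TPM in Dis, and 3.94, 4.80 and 2.89 TPM in NC. The groups overlapped. The log2 difference was -0.34 from Con (SE 0.22, adjusted p = 0.311 in limma) and -0.05 from NC (SE 0.22, adjusted p = 0.887). The microRNA gene Mir378a lies within Ppargc1b on the same strand and was listed apart.

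Perm1 showed the largest difference of the 10 members on the deposited values, a rank that was lost without Dis 2. Its samples stood at 144, 118 and 110 TPM in Con, 47.1, 22.8 and 73.3 TPM in Dis, and 102, 136 and 97.0 TPM in NC. Every Dis sample lay below every sample of the other groups, and Dis 2 lay lowest. Perm1 fell by 1.51 on the log2 scale from Con (SE 0.35, adjusted p = 0.0209 in limma) and by 1.35 from NC (SE 0.35, adjusted p = 0.0294). The mean in Dis was 38.4% of that in Con and 42.7% of that in NC. Without Dis 2 the difference from Con was -1.06 (adjusted p = 0.0141 in limma) and that from NC was -0.91 (adjusted p = 0.0248), each smaller than that of Esrrb without the same sample (-1.28 and -1.19). Without any 1 of the Con samples the adjusted p of the first comparison lay between 0.0506 and 0.0777, and without any 1 of the NC samples that of the second lay between 0.0667 and 0.0951. Perm1 lies on the plus strand at chr4:156215868-156221307, and 0 listed genes overlapped it.

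Perm1 and Ppargc1a parted in every immobilized sample. The ratio of Perm1 to Ppargc1a was 18.8, 19.7 and 13.5 in Con, 6.16, 5.77 and 7.50 in Dis, and 13.7, 19.0 and 14.9 in NC. A common factor over a sample cannot alter it, though quantile normalization can. The Dis ratios did not overlap those of Con or NC, and Dis 2, the sample with the least of both transcripts, had a ratio close to the others of its group. No test was run on the ratio.

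**Figure D3:**
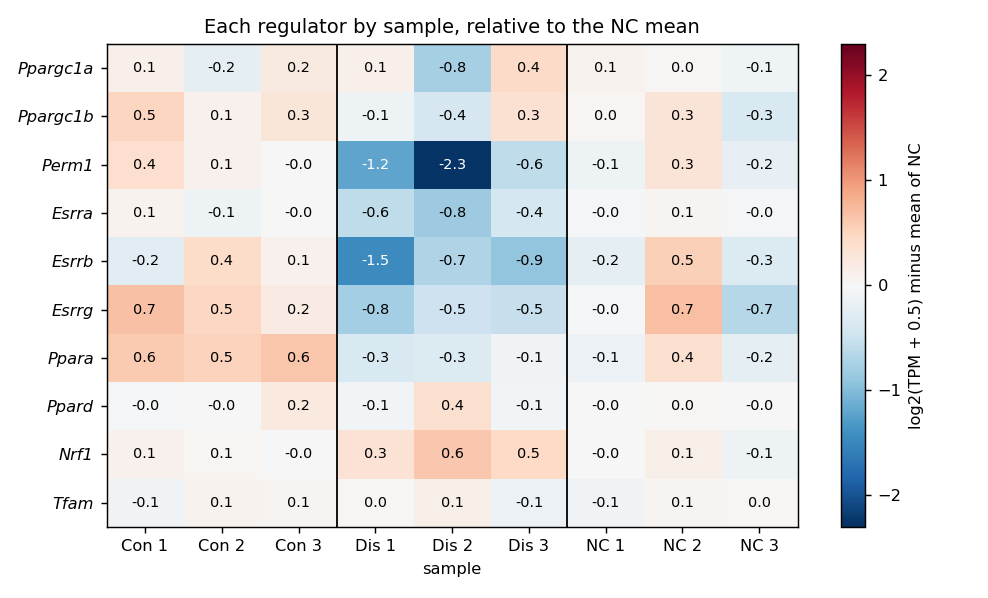
Each regulator (rows) in each sample (columns) as log2(TPM + 0.5) minus the mean of NC, with the value written in each cell. Perm1 in Dis 2, at -2.3, is the lowest cell, Esrrb, Esrrg and Ppara are not lowest in that sample, and Ppara is at 0.5 to 0.6 in the 3 Con samples.

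Of the estrogen-related receptors, Esrra, which encodes ERRα and is a target of its own product, was by far the most abundant. It stood at 94.1, 82.1 and 87.9 TPM in Con, 58.8, 49.4 and 66.5 TPM in Dis, and 86.2, 92.6 and 87.6 TPM in NC. The Dis samples lay below all others, and Con and NC covered one range. Esrra fell by 0.60 from Con (SE 0.11, adjusted p = 0.0112 in limma) and by 0.61 from NC (SE 0.11, adjusted p = 0.00964). The comparison with NC passed the threshold in all 20 other settings tried; the one with Con passed in 19 and stood at an adjusted p of 0.0516 in limma without Con 1. Esrra spans chr19:6910977-6921840 on the minus strand and overlaps Trmt112, a gene on the opposite strand with a mean of 18 TPM; whether the counting used strand is not given in the sources used here.

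Esrrg encodes ERRγ, the receptor best known from slow, oxidative fibres and heart. It stood at 13.9, 11.9 and 9.74 TPM in Con and at 4.73, 5.98 and 5.75 TPM in Dis, without overlap. In NC it varied more, at 8.34, 13.9 and 5.19 TPM, and the lowest of these lay within the Dis range. Esrrg fell by 1.04 from Con (SE 0.29, adjusted p = 0.0393 in limma), while the difference from NC was -0.59 (SE 0.29, adjusted p = 0.18). The call against Con was lost when any 1 of the Con or Dis samples, or NC 1, was left out, with an adjusted p between 0.0523 and 0.127 in limma.

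Esrrb, which encodes ERRβ and is known in mice from stem cells and placenta, was one of the rarest members. It stood at 3.18, 5.33 and 4.18 TPM in Con, 1.06, 2.19 and 1.83 TPM in Dis, and 3.20, 5.84 and 2.99 TPM in NC. Every Dis sample lay below every sample of the other groups. Esrrb fell by 1.12 from Con (SE 0.29, adjusted p = 0.0303 in limma) and by 1.02 from NC (SE 0.29, adjusted p = 0.0406). At levels this low the added 0.5 TPM makes the log2 difference smaller than that of the means, which stood at 40.0% of Con and 42.2% of NC. The call against Con did not hold without any 1 of the Con samples, Dis 1 or Dis 3 (adjusted p from 0.0521 to 0.096 in limma). Against NC it held without Con 1 or Dis 2 and stood at 0.05 to 0.12 without any other sample.

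Summed over the 3 receptors, ERR transcript levels were 111, 99.4 and 102 TPM in Con, 64.6, 57.5 and 74.1 TPM in Dis, and 97.7, 112 and 95.8 TPM in NC. The sum was lower in each Dis sample than in any other sample. Esrra made up 82.4% to 91.5% of the sum, and that share overlapped across the groups. The ratio of Esrra to Esrrg was 6.78 to 9.02 in Con, 8.25 to 12.4 in Dis and 6.64 to 16.9 in NC, so the Dis values lay within the range of NC.

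Of the PPARs, Ppara, whose product PPARα drives fatty acid oxidation, stood at 4.50, 4.21 and 4.62 TPM in Con, 2.07, 2.14 and 2.61 TPM in Dis, and 2.47, 3.73 and 2.29 TPM in NC. Con stood above both other groups without overlap, and Dis overlapped NC. Ppara fell by 0.84 in Dis from Con (SE 0.17, adjusted p = 0.0157 in limma), and the difference from NC was -0.24 (SE 0.17, adjusted p = 0.349). The call against Con was lost without Con 1 or Con 3 (adjusted p = 0.0597 and 0.0515 in limma).

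Con with NC compares the free leg of immobilized mice with muscle of untreated mice. By limma 0 of the 10 members passed, and among all genes 0.0062% did. At an unadjusted p below 0.05 1 member passed, Ppara, as did 6.25% of all genes. Ppara was 0.59 higher in Con on the log2 scale (SE 0.17, unadjusted p = 0.00738, adjusted p = 0.519 in limma), the mean being 157% of that in NC, and it was the member whose Con and NC samples did not overlap, as for 17.6% of genes (9.54% higher and 8.11% lower). Esrrg was 0.44 higher in Con (SE 0.29, adjusted p = 0.903). For these receptors the comparison of Dis with Con thus gave a larger difference than that of Dis with NC. Since all 3 comparisons share samples, that order of sizes follows from the Con and NC levels and was not tested further.

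Ppard, the PPAR most expressed in muscle, stood at 21.6, 21.6 and 25.6 TPM in Con, 21.0, 28.5 and 21.0 TPM in Dis, and 21.7, 22.3 and 21.6 TPM in NC. The groups overlapped, with Dis 2 the highest of all. The log2 difference was 0.02 from Con (95% interval -0.27 to 0.32, adjusted p = 0.916 in limma) and 0.09 from NC (95% interval -0.21 to 0.38, adjusted p = 0.665). The ratio of Ppard to Ppara was 4.80 to 5.55 in Con, 8.05 to 13.3 in Dis and 5.97 to 9.46 in NC. It was higher in each Dis sample than in any Con sample, and Dis and NC overlapped.

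Nrf1, the member that passed in the other direction, stood at 7.91, 7.68 and 7.36 TPM in Con, 9.44, 11.7 and 10.3 TPM in Dis, and 7.34, 8.18 and 6.75 TPM in NC. Every Dis sample lay above all others. Nrf1 rose by 0.43 from Con (SE 0.12, adjusted p = 0.0374 in limma) and by 0.47 from NC (SE 0.12, adjusted p = 0.0265). These values lay 0.22 and 0.26 above the median of all genes, and the call depended on the scaling, as given next. The call against Con held without Dis 1 or NC 2 and stood at an adjusted p of 0.0517 to 0.103 in limma without any other sample. That against NC was lost without Dis 2, NC 1 or NC 3 (adjusted p from 0.0529 to 0.0955). Tfam, a target of NRF1, stood at 14.8, 16.8 and 16.5 TPM in Con, 16.2, 17.5 and 14.3 TPM in Dis, and 14.9, 16.4 and 16.2 TPM in NC. The groups covered one range, with log2 differences of -0.01 from Con (95% interval -0.24 to 0.23, adjusted p = 0.97 in limma) and 0.01 from NC (adjusted p = 0.951). The ratio of Nrf1 to Tfam was 0.446 to 0.534 in Con, 0.583 to 0.722 in Dis and 0.417 to 0.498 in NC, higher in each Dis sample than in any other.

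Since most genes shifted upward in Dis on the deposited scale, the comparison was repeated under other scalings. With median-ratio scaling the median of all genes moved from 0.20 to 0.01, and the calls over all genes moved from 2273 higher and 497 lower to 431 higher and 753 lower in Dis with Con. Perm1, Esrra, Esrrb, Esrrg and Ppara passed in Dis with Con under median-ratio scaling, under quantile normalization and after rescaling without the mitochondrial chromosome. Their differences grew under median-ratio scaling, to -1.74 for Perm1 and -0.83 for Esrra. Nrf1 did not pass under any of these 3 scalings, at 0.21, 0.20 and 0.36 (adjusted p = 0.259, 0.269 and 0.0747 in limma). The sign of Ppard turned with the scaling, that of Tfam did so in Dis with NC but not in Dis with Con, and neither passed under any of these.

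**Figure D4:**
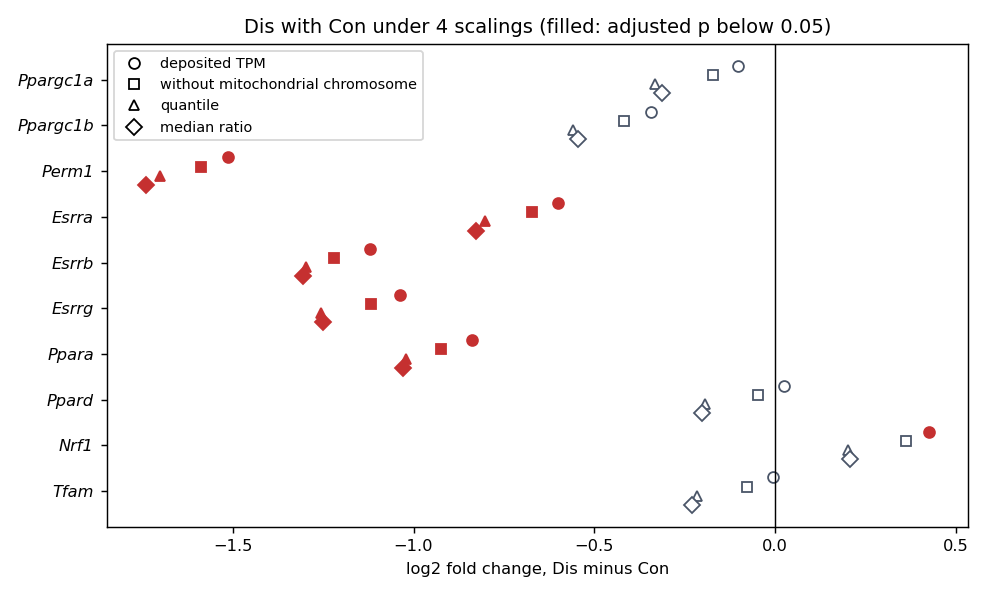
Log2 fold change of Dis from Con (x axis) for each regulator under the deposited TPM scale and 3 other scalings (symbols); filled symbols passed an adjusted p of 0.05 in limma. The 5 lower members are filled under all 4 scalings, and Nrf1 is filled on the deposited scale.

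The genes around these regulators were read from lists. Of 5 dimer partners and paralogs, 1 was higher in Dis than in Con, where 14.1% of all genes were, with a list median of 0.20. This was Rxra, the RXR partner of the PPARs, at 69.9, 72.3 and 65.9 TPM in Con and 86.5, 81.0 and 88.1 TPM in Dis, a rise of 0.29 (SE 0.08, adjusted p = 0.0393 in limma). It did not pass under median-ratio scaling, nor without any 1 of the Con samples, Dis 1, Dis 3, NC 1 or NC 3. Rxrg, the isoform best known from muscle, was at -0.39 (SE 0.15, adjusted p = 0.0936), Pprc1, the third PGC-1 family gene, at 0.30 (adjusted p = 0.183) and Pparg at -0.17 (adjusted p = 0.517).

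Of 19 co-activators, co-repressors and enzymes that modify PGC-1, 10 were higher in Dis than in Con and 0 lower (14.1% and 3.08% of all genes), with a list median of 0.44 against 0.20 over all genes. Kat2b, an acetyltransferase, stood at 35.3, 38.9 and 35.4 TPM in Con and 61.8, 54.7 and 65.6 TPM in Dis, and rose by 0.72 (SE 0.09, adjusted p = 0.00406 in limma). Prkaa2, the catalytic α2 subunit of AMPK, rose by 0.58 (SE 0.09, adjusted p = 0.00599) and Mybbp1a, a repressor of PGC-1α, by 0.61 (SE 0.11, adjusted p = 0.00861). The 10 held both the acetylase Ep300 and the deacetylase Sirt1. Under median-ratio scaling 2 of the 19 were higher, as were 431 of all 16140 genes. The count was 4, 3 and 5 without Con 1, Con 2 and Con 3, 5 without Dis 3 and 6 without any 1 of the NC samples. In Dis with NC 10 of 19 were again higher and 0 lower (13.6% and 2.99% of all genes). The 10 included Nrip1, the repressor RIP140, at 3.42, 3.47 and 4.29 TPM in NC against 10.8, 15.0 and 8.84 TPM in Dis. Nrip1 was 5.80, 7.12 and 10.6 TPM in Con, overlapping Dis. Every Con sample also lay above every NC sample, as for 9.54% of all genes, though no gene of this list passed in Con with NC. Without NC 1, NC 2 and NC 3 the count against NC was 4, 5 and 5.

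Of 16 genes that act on the Ppargc1a promoter, 15 were tested, and 7 were higher in Dis than in Con and 0 lower (14.1% and 3.08% of all genes), with a list median of 0.47. Hdac4, a class II deacetylase that represses MEF2, stood at 11.2, 12.1 and 9.05 TPM in Con, 25.3, 30.2 and 23.2 TPM in Dis, and 8.91, 10.4 and 9.96 TPM in NC. Every Dis sample was above all others, a rise of 1.25 from Con (SE 0.14, adjusted p = 0.00275 in limma). Ppp3ca, a catalytic subunit of calcineurin, rose by 0.63 (SE 0.10, adjusted p = 0.00741) and Crtc2, a co-activator of CREB, by 0.54 (SE 0.10, adjusted p = 0.0124). The transcripts of the activators Mef2a and Mef2c were also among the 7. Under median-ratio scaling 1 of the 15 was higher, as were 431 of all 16140 genes, and without Con 1 or Con 3 the count was 2 or 4. Ppargc1a itself, as given above, did not pass in either direction.

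**Figure D5:**
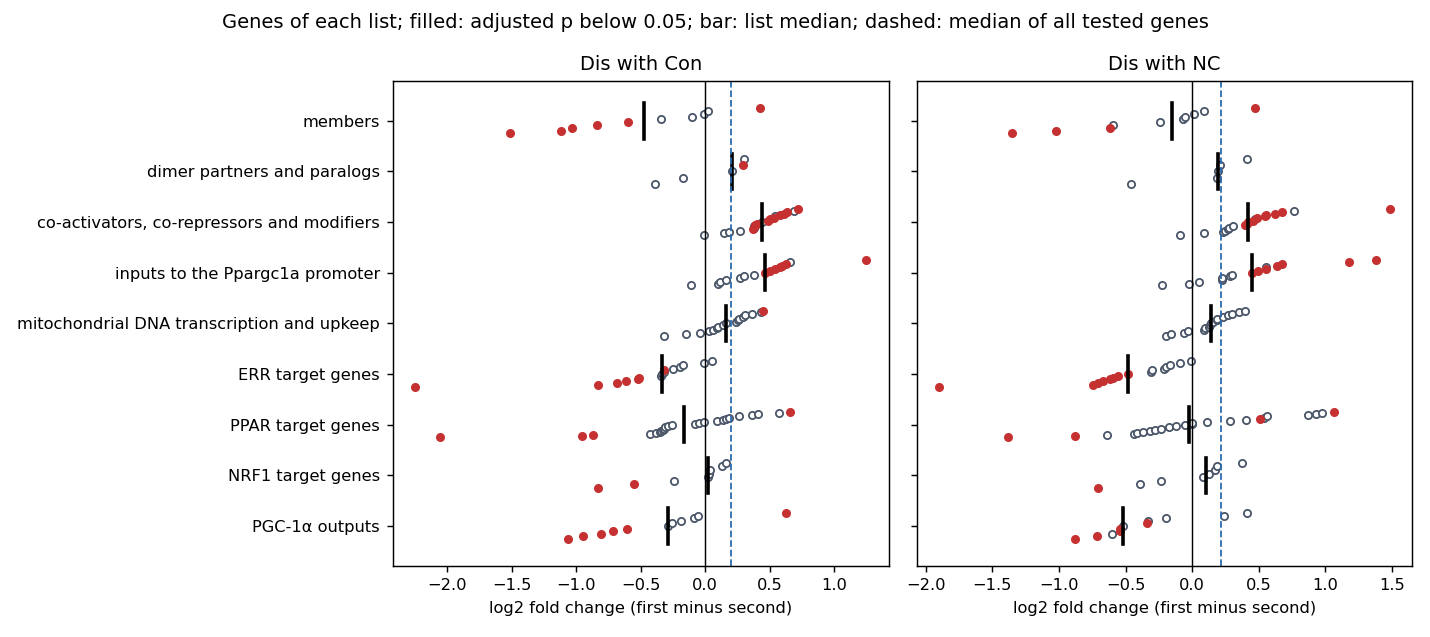
Log2 fold change (x axis) of every tested gene of each list (rows) for Dis with Con and Dis with NC; filled points passed an adjusted p of 0.05 in limma, the bar is the list median and the dashed line the median of all tested genes. The ERR target genes lie left of the dashed line in both panels, at list medians of -0.33 and -0.48, and the co-activators have list medians right of it, at 0.44 and 0.42.

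The known targets of the ERRs lay on the lower side. Of 15 such genes, 7 were lower in Dis than in Con and 0 higher, where 3.08% of all genes were lower, with a list median of -0.33. Against NC, 8 were lower and 0 higher (2.99% and 13.6% of all genes), with a list median of -0.48 against 0.21 over all genes. Ckmt2, the mitochondrial creatine kinase of muscle, stood at 1453, 1064 and 1139 TPM in Con, 297, 165 and 331 TPM in Dis, and 898, 1114 and 849 TPM in NC. It fell by 2.25 from Con (SE 0.25, adjusted p = 0.00275 in limma) and by 1.90 from NC (SE 0.25, adjusted p = 0.00364), a larger change than that of any of the 10 regulators.

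Cycs, which encodes cytochrome c, fell by 0.83 from Con (SE 0.11, adjusted p = 0.00406 in limma), from 173, 152 and 168 TPM in Con to 106, 79.8 and 92.5 TPM in Dis. Sdhb, a subunit of succinate dehydrogenase, fell by 0.68 (SE 0.15, adjusted p = 0.0183). The number of ERR targets lower than in Con was 8 under median-ratio scaling (753 of all 16140 genes), and 2 when Con 1 or Con 3 was left out. Against NC the number was 4 without NC 1 and 5 without NC 2.

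PPAR targets were read next. Of 24, 3 were lower and 1 higher in Dis than in Con (3.08% and 14.1% of all genes), with a list median of -0.17. Fabp3, the fatty acid binding protein of heart and oxidative muscle, stood at 874, 1240 and 936 TPM in Con, 247, 286 and 198 TPM in Dis, and 520, 890 and 540 TPM in NC. All Dis samples lay below all others, a fall of 2.06 from Con (SE 0.23, adjusted p = 0.00275 in limma) and of 1.39 from NC (SE 0.23, adjusted p = 0.00643). Hadhb, a subunit of the trifunctional enzyme of β-oxidation, fell by 0.87 from Con (SE 0.16, adjusted p = 0.0106), and Lpl, the lipase that frees fatty acids from lipoproteins, by 0.96 (SE 0.22, adjusted p = 0.022).

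The PPAR target that went up was Ucp3, a mitochondrial carrier known to rise with fatty acid supply. It stood at 148, 120 and 100 TPM in Con, 212, 191 and 172 TPM in Dis, and 81.7, 88.8 and 104 TPM in NC. It rose by 0.65 from Con (SE 0.15, adjusted p = 0.0221 in limma) and by 1.07 from NC (SE 0.15, adjusted p = 0.00469). Under median-ratio scaling 8 PPAR targets were lower and 0 higher in Dis than in Con, and 7 were lower and 1 higher than in NC. Of all 16140 genes, 753 were then lower and 431 higher than in Con, and 891 lower and 566 higher than in NC. Without NC 2, which enters the shared estimate of the spread, 6 were lower than in Con, and 2 were without Con 1 or Con 2.

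Of 8 NRF1 targets, 2 were lower in Dis than in Con and 0 higher (3.08% and 14.1% of all genes), with a list median of 0.02. These were Cycs, which is also on the ERR list, and Alas1, the first enzyme of heme synthesis, which fell by 0.55 (SE 0.14, adjusted p = 0.0299 in limma). Without Con 1, Con 2 or Dis 1, 1 of the 8 was lower. Of 17 genes for the transcription and upkeep of mitochondrial DNA, 1 was higher in Dis than in Con and 0 lower, below the 14.1% of all genes that were higher, with a list median of 0.16. This was Gabpb1, a subunit of the factor GABP also called NRF2, which rose by 0.45 (SE 0.14, adjusted p = 0.0497 in limma), just inside the threshold, and did not pass against NC, where 0 of the 17 did. No gene of the list was higher than in Con without any 1 of the Con or NC samples or Dis 2, and under median-ratio or quantile scaling 0 were higher and 1 lower. Of all 16140 genes, 431 were higher and 753 lower under the first of these scalings, and 549 higher and 643 lower under the other.

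Of 11 genes that PGC-1α is known to raise outside respiration, 5 were lower in Dis than in Con and 1 higher (3.08% and 14.1% of all genes), with a list median of -0.29. Fndc5, the precursor of irisin, stood at 66.8, 66.4 and 62.9 TPM in Con, 34.6, 39.7 and 37.0 TPM in Dis, and 53.8, 74.3 and 56.6 TPM in NC. It lay lower in every Dis sample than in any other, a fall of 0.81 from Con (SE 0.12, adjusted p = 0.00589 in limma). Vegfa, the growth factor of capillaries, fell by 0.72 (SE 0.15, adjusted p = 0.017), and Got2, the mitochondrial aspartate transaminase, by 0.61 (SE 0.13, adjusted p = 0.0174). Sirt3 and myoglobin (Mb) were the other lower genes, and Tfeb, a regulator of lysosomes, was the higher one at 0.63 (SE 0.15, adjusted p = 0.0226). Against NC, 5 were lower and 0 higher (2.99% and 13.6% of all genes). The number lower than in Con was 1 without Con 1 and 3 without Con 3. That against NC was 1 without any 1 of the NC samples and 3 without Con 2, Con 3 or Dis 2.

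Fibre type markers were read from lists as well. The summed level of 10 slow-fibre genes was 3478, 10246 and 9760 TPM in Con, 1283, 3935 and 3448 TPM in Dis, and 7401, 9241 and 4363 TPM in NC. By this sum Con and Dis overlapped, and every Dis sample lay below every NC sample. Of the 10 genes, 5 were lower in Dis than in Con, where 3.08% of all genes were. The sum of 9 fast-fibre genes was 125188 to 140451 TPM in Con, 149571 to 161097 TPM in Dis and 121343 to 143425 TPM in NC. Of the 9 genes, 1 was higher in Dis than in Con, where 14.1% of all genes were. Con 1, whose slow-fibre sum was below that of Dis 2, had the highest Perm1 (144 TPM), Esrra (94.1 TPM) and Esrrg (13.9 TPM) of the free legs and the lowest Esrrb (3.18 TPM). Within NC, every member except Ppargc1a was highest in NC 2, the sample with the most slow-fibre transcript. These members included Nrf1, which was higher in Dis on the deposited scale only, and Ppard and Tfam, which did not pass. Within Dis, Dis 2 had the most slow-fibre transcript. It had the lowest Perm1 (22.8 TPM) and Esrra (49.4 TPM) of that group and the highest Esrrb (2.19 TPM) and Esrrg (5.98 TPM). The part of fibre type in the differences was not tested.

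Other cell types were read in the same way. The 4 satellite cell genes summed to 13.4 to 16.8 TPM in Con, 23.3 to 38.6 TPM in Dis and 13.7 to 17.1 TPM in NC. Of 3 tested genes, 1 was higher in Dis than in Con (14.1% of all genes). The sum of 5 endothelial genes was 120 to 128 TPM in Con and 128 to 149 TPM in Dis, with the lowest Dis sample just above the highest Con sample, and 116 to 156 TPM in NC. By sign, 3 of the 5 lay higher and 2 lower in Dis than in Con, with 0 called, and 1 was called lower against NC (2.99% of all genes). The 4 Schwann cell genes summed to 31.4 to 90.3 TPM in Con, 81.4 to 231 TPM in Dis and 54.5 to 104 TPM in NC. All 4 lay higher in Dis than in Con by sign, and 1 was called higher (14.1% of all genes). Sums of 4 fibroblast genes (143 to 530 TPM, highest in Dis 2), 3 tendon genes (10.3 to 33.4 TPM) and 5 red blood cell genes (157 to 437 TPM) overlapped between Con and Dis. Of 3 brown adipocyte genes, which can carry PGC-1α from another tissue, 1 was at 0 in every sample and the sum was 0.985 to 3.33 TPM. The part of these cells in the differences was not tested.

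The genes whose pattern over the 9 samples was most like that of Perm1 were sought by the root mean square difference of centred log2(TPM + 0.5). The nearest were Gm32352 (0.22), Gm13772 (0.27), Mettl21c (0.27), Gm28651 (0.27) and Grb14 (0.29). Mettl21c, a lysine methyltransferase of muscle, stood at 85.8, 106 and 96.1 TPM in Con, 39.8, 19.6 and 39.1 TPM in Dis, and 91.0, 93.8 and 85.9 TPM in NC. As with Perm1, Dis 2 was lowest and Con and NC covered one range. The nearest to Ppargc1a were mt-Tr (0.12), Kif1b (0.13), mt-Tl1 (0.13), H3c11 (0.14) and 4732491K20Rik (0.14). Kif1b, a kinesin motor, stood at 117, 112 and 114 TPM in Con, 103, 63.5 and 147 TPM in Dis, and 116, 126 and 105 TPM in NC, so that the likeness lay in the spread among the Dis samples. Genes were picked for this likeness, which is a description with no test.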

How the data were processed

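RNA-seq of 9 gastrocnemius samples was used, 3 per group by the sample labels. Per the methods and the labels, the authors demultiplexed reads with bcl2fastq 2.20, trimmed them, aligned them with HISAT2 (no version given) and quantified genes with StringTie. The deposited values are TPM, 1 table per sample, with 0.0001 TPM as a stand-in for none, read here as 0. The genome build is not given in the sources used here. Of 55487 gene identifiers, 54901 had the coordinates of GENCODE mouse release 21, a GRCm38 annotation.

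Genes at 0.3 TPM or more in at least 3 samples were fitted as log2(TPM + 0.5) over the 3 groups in limma 3.58.1 (R 4.3.3) with the mean trend, and called at an adjusted p below 0.05. The script was also run on simulated data, as a check of the code and not of these calls. The simulated samples were independent, with neither shared animals nor a shift of most genes in Dis. Fold changes understate those of low genes. No count model was used, TPM not being counts. By the study's text the immobilized group's samples came from separate mice; for NC the sources used here do not say so. The p-values set each group difference against the spread between these samples, pooled over the 3 groups. Con and Dis were fitted as independent samples although they share animals, because no key to the pairs is given. Named genes are the 10 members, up to 3 called genes per list with the smallest p in Dis with Con (in Dis with NC where Dis with Con had none), and the 5 genes most like Perm1 and Ppargc1a; Rxrg, Pprc1, Pparg, Ep300, Sirt1, Sirt3, Mb, Tfeb, Ucp3, Nrip1, Mef2a and Mef2c were named after their values were seen. The members and lists were chosen with earlier results of these data known. Alternatives were 2 pseudocounts (0.1 and 1 TPM), 2 filters (none and 1 TPM), 3 scalings, array weights, fits to the compared groups alone, no mean trend, a replicate term and leaving out each sample.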

Additional observations from a re-analysis of the deposited data

How the results depend on the processing

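Of 10 members, 6 passed in Dis with Con and 4 in Dis with NC. Without the filter these counts were 3 and 2, and in fits to the compared groups alone 3 (Esrra, Esrrg and Ppara) and 1 (Esrra). Leaving out 1 sample gave 0 to 6 members in Dis with Con (0 without Con 1, 2 without Con 2, 1 without Con 3, 3 without Dis 3) and 1 to 4 in Dis with NC (1 without NC 1, 2 without NC 2, 1 without NC 3). Listed genes called numbered 37 in Dis with Con and 34 in Dis with NC. These were 21 in Dis with Con under quantile normalization, 16 and 17 in fits to the compared groups, and 12 to 37 and 15 to 39 with 1 sample left out (12, 19 and 18 without Con 1, 2 and 3, and 15, 22 and 19 without NC 1, 2 and 3). Calls over all genes fell in these settings too. In Dis with Con they fell from 17.2% to 6.93% without the filter and 5.25% in the fit to the compared groups. Without Con 1, Con 2, Con 3 and Dis 3 they were 4.39%, 7.54%, 7.85% and 14.2%. In Dis with NC they fell from 16.6% to 6.88% without the filter and 7.62% in the fit to the compared groups. Without NC 1, NC 2 and NC 3 they were 5.28%, 7.92% and 6.98%. No member passed in Con with NC in the 20 alternatives.

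Same-numbered samples did not deviate together (r from -0.10 to 0.07). For Con with Dis, the groups that share animals, r was -0.01, -0.02 and 0.02. With 3 samples per group this cannot show whether same-numbered Con and Dis samples came from one mouse. With a replicate block 5 and 4 members and 29 and 35 listed genes passed in the 2 comparisons, and Nrf1 stood at an adjusted p of 0.0515 in limma for Dis with Con.

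No call of a member turned its sign. Among members that did not pass, Ppard was -0.20 and -0.15 (Dis with Con, Dis with NC) under median-ratio scaling, -0.19 and -0.14 under quantile normalization, and in Dis with Con -0.048 without the mitochondrial chromosome and -0.077 with array weights. In Dis with NC, Tfam was -0.23, -0.21, -0.068 and -0.0041 in these settings. With array weights Ppargc1a was 0.059 and 0.11, and Ppargc1b was 0.042 in Dis with NC. Leaving out 1 sample gave ranges that crossed 0 for these 4 members. For Dis with Con they were -0.36 to 0.24 for Ppargc1a, -0.12 to 0.10 for Ppard and -0.073 to 0.070 for Tfam. For Dis with NC they were -0.32 to 0.28 for Ppargc1a, -0.25 to 0.11 for Ppargc1b, -0.056 to 0.16 for Ppard and -0.055 to 0.088 for Tfam. The cause was not tested. Depth is not known, so what it limits cannot be given.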
